A study of Mus musculus with 6 samples.

Results

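Synaptic vesicle and membrane fusion genes were examined in the spinal cord of Dhtkd1 null and wild-type mice. The members were chosen by gene name: non-control probes named for a synaptotagmin, synapsin, syntaxin, VAMP or complexin with its number, or with a name that starts with Sv2, Rab3, Snap2, Stxbp or Unc13. This gave 83 of the 27342 gene names on the array, read by 172 of its 41174 non-control probes. The name rule also takes in genes that share only the start of a name, such as the GTPases Rab30 to Rab39, and these are set apart below.

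Spinal cord RNA was labelled with Cy3 and measured on 1-colour Agilent microarrays, 1 per sample. The samples were 3 Dhtkd1 null and 3 wild-type, all from male C57BL/6 mice at 8 weeks of age. How the null allele was made is not given in the sources used here, and the labels number the replicates without naming separate animals, so p-values measure only the spread between these samples. All 3 null arrays and wild-type replicate 2 lay on 1 slide, and wild-type replicates 1 and 3 lay on another slide that was scanned separately.

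Transmitter release depends on a short cycle. Vesicles are tethered by Rab3 and synapsins, docked and primed by syntaxin-binding proteins and Munc13 (the Unc13 genes), and fused when a vesicle SNARE of the VAMP family zips with syntaxin and SNAP25 on the plasma membrane. Complexins hold and activate the assembled SNARE complex, and synaptotagmins are the calcium sensors that trigger it. SV2 proteins are vesicle glycoproteins that take part in release. Related syntaxins, VAMPs and SNAPs do the same membrane work at the Golgi, endosomes, lysosomes and secretory granules of all cells, so the members cover both nerve terminals and general traffic.

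Signals are log2 processed intensities minus the 75th percentile of the array, so that 0 is the brightness of a probe at that percentile. That percentile lay between 918 and 1032 intensity units. On each array, at least 78.4% of spots exceeded background clearly. Dhtkd1 itself averaged -3.89 ± 0.46 in null and -2.82 ± 0.36 in wild-type cord (log2 signal, SD, n = 3 each), a difference of -1.07 (SE 0.29, limma adjusted p = 0.453), and both of its probes were lower in all null samples while still above background. The neuronal marker list was well above background on every array for 15 of 15 genes. Slide and genotype were only partly separable, so each difference is also given, where it matters, with slide as a block, which here equals the 3 null arrays against wild-type replicate 2 alone.

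Of the 172 probes, 161 were well above background on at least 3 of 6 arrays and were kept, and they measured 80 of the 83 genes. Cplx4, Stx19 and Syt8 were well above background on no array of at least 1 genotype and were not tested. Each gene was represented by its brightest kept probe. For 79 of the 80 measured genes that probe was well above background on all 6 arrays, and the exception was Syt15.

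Taken as a whole, the machinery differed little between genotypes. None of the 80 members had a limma adjusted p under 0.05 in the fit over all 21437 genes, where 0% of genes passed. At an unadjusted p under 0.05, 5 members were higher in null cord, against a background of 5.76% of all genes, and 0 were lower, against a background of 3.25%. Signals of the 2 genotypes did not overlap for 9 members that were higher in null cord (background 9.19%) and for 5 that were lower (background 5.63%), so these shares lie near the background. In all, 44 members (55%) had higher and 36 had lower means in null cord, where 54.5% of all genes had higher means. The members' median log2 difference was 0.04, and that of all genes was 0.02. Leaving out wild-type replicate 1 raised the count of 5 to 11, while leaving out null replicate 2 or 3 lowered it to 3 or 2. The count of 0 became 5 when wild-type replicate 1 was left out and 2 when wild-type replicate 2 or null replicate 1 was. It became 1 when wild-type replicate 3 was left out. Shares of all genes with an array left out were not counted, so these changes cannot be set against a background. When slide entered as a block, the members' median was -0.01, with 7 higher and 5 lower at an unadjusted p under 0.05 (backgrounds 4.6% and 3.48%). Probe by probe, 102 of the 161 kept oligos had higher and 59 had lower means in null cord. Of these, 11 were higher at an unadjusted p under 0.05 (background of all kept probes 5.35%), 2 were lower (background 2.84%), and 0 passed after adjustment. In bulk tissue, fewer cells of a type and less RNA per cell cannot be told apart.

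**Figure D1:**
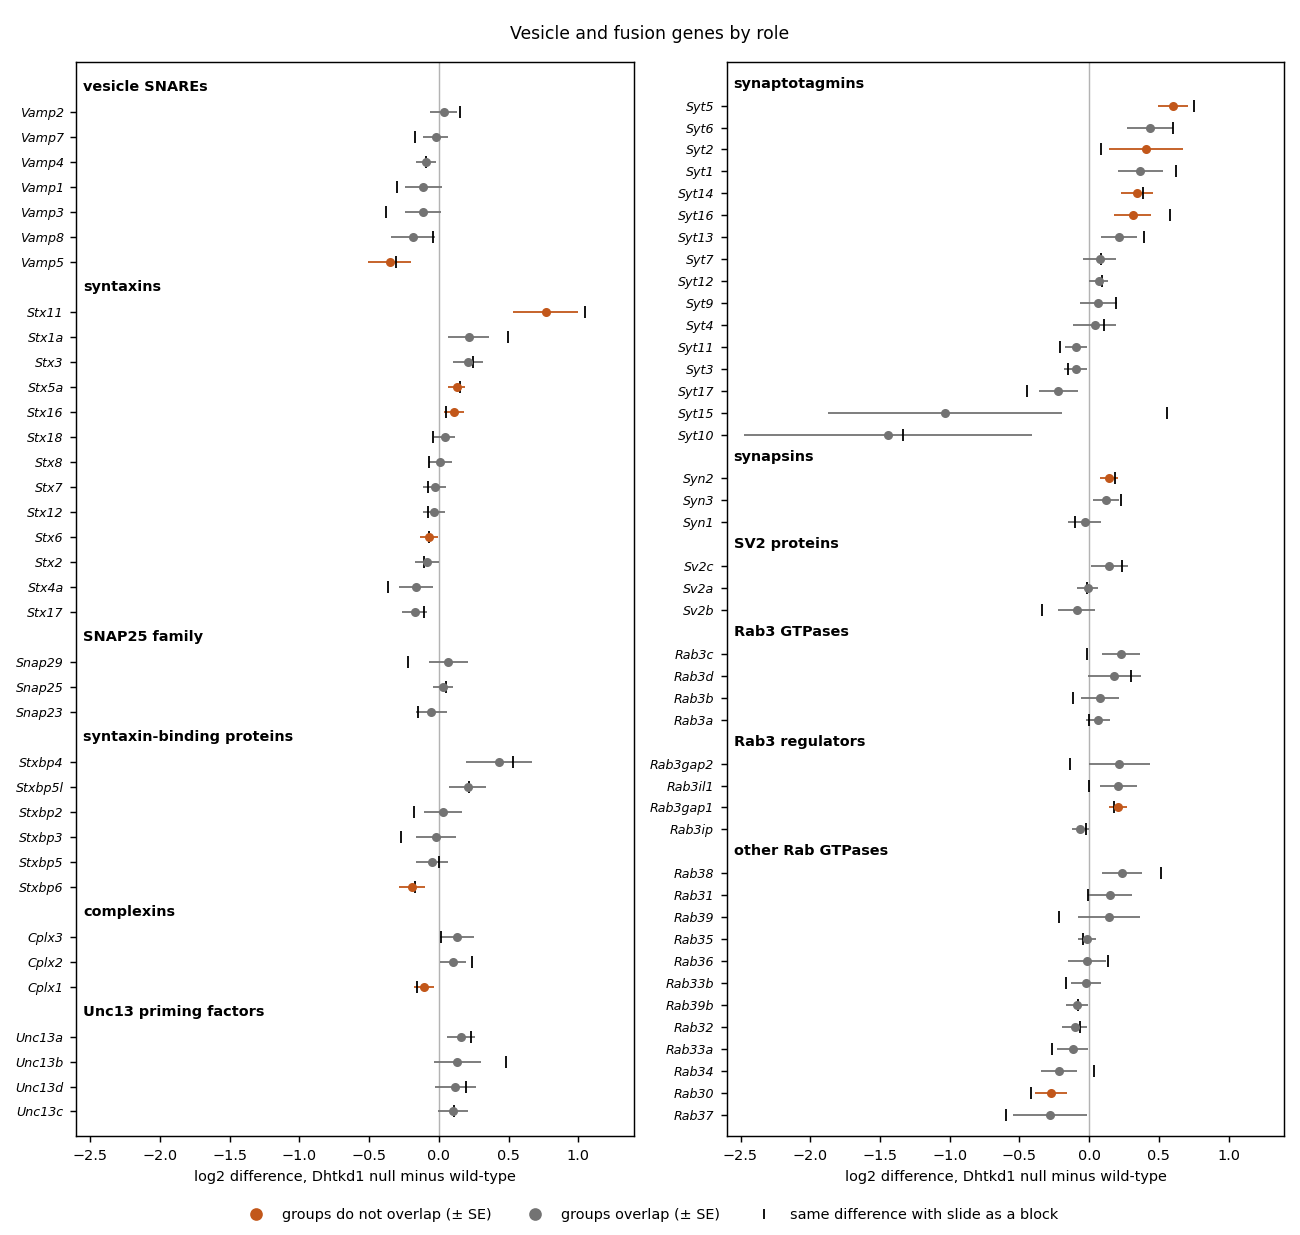
Log2 difference (Dhtkd1 null minus wild-type, x axis) of measured genes, grouped by role. Points are differences from the fit with ± SE (n = 3 each), orange where the groups do not overlap, and black ticks give the difference with slide as a block. Most genes lie within 0.3 of 0, Syt5 and Stx11 lie to the right, and Syt10 and Syt15 lie to the left with wide errors.

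The vesicle SNAREs leaned to lower values in null cord without any member passing the test. Of 7 measured genes, 1 had a higher and 6 had lower means at their brightest probes, with a median log2 difference of -0.11. Vamp4 differed by -0.09 there and by 0.14 and 0.04 at its other probes. The second kept probes of Vamp1, Vamp3 and Vamp5 were lower too, by -0.01, -0.36 and -0.23. With 1 array left out, the Vamp3 difference ran from -0.21 to 0.02 and that of Vamp7 from -0.07 to 0.05. Vamp1, the VAMP of spinal and motor terminals, had log2 signals of 5.56, 5.67 and 5.42 in null cord and 5.72, 5.85 and 5.42 in wild-type cord. Null replicate 3 and wild-type replicate 3 shared the lowest value, and the groups overlapped (difference -0.11, SE 0.14, adjusted p = 0.812). Vamp2, the general synaptic VAMP, had 3.93, 3.72 and 3.77 in null and 3.90, 3.65 and 3.77 in wild-type cord. These values interleave (difference 0.04, SE 0.10, adjusted p = 0.921).

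A pair of the Vamp2 probes shows how closely 2 reports of 1 transcript can follow each other. The oligos cover the end of the coding sequence and share 50 bases, which are in capitals, so they are not independent measurements.
Vamp2 probe 1: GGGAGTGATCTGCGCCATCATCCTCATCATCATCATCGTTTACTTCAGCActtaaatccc
Vamp2 probe 2: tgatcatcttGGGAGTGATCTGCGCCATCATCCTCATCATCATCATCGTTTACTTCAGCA
In mm9 the first lies within chr11:68903492-68904173 and the second within chr11:68903482-68904163, both on the plus strand and each across an intron. Probe 1 read -0.07, -0.06 and -0.07 in null and -0.05, -0.16 and -0.37 in wild-type cord, and probe 2 read -0.57, -0.49 and -0.57 in null and -0.47, -0.59 and -0.83 in wild-type cord. Both oligos put wild-type replicate 3 lowest, which the brightest Vamp2 probe did not.

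Among the other VAMPs, Vamp5, a VAMP best known from muscle and vessel wall, was the member whose groups did not overlap. Its signals were -0.20, 0.22 and 0.15 in null and 0.24, 0.37 and 0.63 in wild-type cord. Null replicate 1 was the lowest sample, and the gap between null replicate 2 and wild-type replicate 1 was small (difference -0.35, SE 0.16, adjusted p = 0.571). Vamp5 and the other genes named below outside the naming rule were chosen after their values were seen. The skeletal muscle marker list, whose array means lay between 0.20 and 0.57 in null cord and between -1.70 and 0.93 in wild-type cord, was higher in null cord for 7 of 7 genes, and with slide as a block it was lower for 7 of 7, as Vamp5 was (difference -0.31). Its part in the Vamp5 result was not tested.

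Among the plasma-membrane SNAREs of the nerve terminal, Snap25 was level between genotypes. This gene, the most used partner of the syntaxins at synapses, had log2 signals of 6.60, 6.51 and 6.54 in null and 6.60, 6.50 and 6.47 in wild-type cord. All 6 values lie within a narrow band, and the groups overlapped (difference 0.03, SE 0.07, adjusted p = 0.915). Its other kept probes differed by 0.01 and -0.06, and the first of them shares 40 bases with the brightest. Stx1a, a neuronal syntaxin, had -0.73, -0.82 and -0.80 in null and -0.98, -1.28 and -0.73 in wild-type cord. Wild-type replicate 2 was low and wild-type replicate 3 matched the highest null sample (difference 0.21, SE 0.15, adjusted p = 0.692). Against wild-type replicate 2 alone, the Stx1a difference was 0.50.

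Across all 14 measured syntaxins, 8 had higher and 6 had lower means in null cord, with a median of 0.03. Stx11, a syntaxin known for granule release by cytotoxic lymphocytes, had the largest difference of this family. Its log2 signals were -5.52, -5.03 and -4.94 in null and -6.05, -6.21 and -5.53 in wild-type cord. Wild-type replicate 3 nearly met null replicate 1, and the groups did not overlap. The difference was 0.77 (SE 0.23, 1.70-fold, adjusted p = 0.497), and 15 of 19 alternative analyses kept an unadjusted p under 0.05. Across these alternatives the Stx11 difference ran from 0.21, with normexp background correction, to 1.04. The probe was dim, though well above background on all 6 arrays. The leukocyte and platelet markers had higher means in null cord for 5 of 7 genes, with array means between -0.16 and 0.86 in null cord and between -0.53 and -0.09 in wild-type cord, and their part in the Stx11 result was not tested.

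Small differences with little spread were seen for some syntaxins of the Golgi and endosomes. The groups overlapped for Stx7, Stx8, Stx12 and Stx18 (differences -0.03, 0.01, -0.04 and 0.04). Stx5a, which works between the endoplasmic reticulum and the Golgi, had 0.11, 0.06 and 0.14 in null and -0.01, -0.05 and -0.01 in wild-type cord, with no overlap (difference 0.13, SE 0.06, adjusted p = 0.597). Stx16, a syntaxin of the trans-Golgi network, had 2.64, 2.63 and 2.61 in null and 2.56, 2.57 and 2.43 in wild-type cord, again with no overlap (difference 0.11, adjusted p = 0.682). The other kept probes of Stx5a and Stx16 differed by 0.06 and 0.09, with overlapping groups. Stx6, also of the trans-Golgi network, lay the other way at its brighter probe. That probe read 1.21, 1.23 and 1.14 in null and 1.23, 1.26 and 1.28 in wild-type cord (difference -0.07, adjusted p = 0.761). The dimmer Stx6 probe had an opposite difference of 0.16, with overlapping groups. Stx17, which serves the fusion of autophagosomes with lysosomes, was lower at both of its probes. Its brighter probe read -0.25, -0.49 and -0.45 in null and -0.17, -0.29 and -0.21 in wild-type cord. Its dimmer probe read -1.44, -1.64 and -1.66 in null and -1.33, -1.10 and -1.07 in wild-type cord. Only at the dimmer probe were the groups separate (difference -0.41, unadjusted p = 0.0091 by limma over kept probes), while the brighter probe, which represents the gene, differed by -0.17 (adjusted p = 0.613).

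Syntaxin-binding proteins guide SNARE assembly. Of 7 measured genes of this group, 3 had higher and 4 had lower means in null cord. Stxbp6 (amisyn), a SNARE-binding inhibitor of fusion, had -0.99, -0.94 and -0.92 in null and -0.88, -0.77 and -0.60 in wild-type cord, with no overlap (difference -0.19, SE 0.09, adjusted p = 0.592). Stxbp4 varied most, with -2.58, -2.25 and -1.66 in null and -2.47, -2.70 and -2.62 in wild-type cord, and null replicate 3 stood highest (difference 0.43, SE 0.24, adjusted p = 0.629).

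Complexins and Munc13 proteins act just before fusion. Cplx1, a neuronal complexin, had 6.12, 6.12 and 6.01 in null and 6.21, 6.24 and 6.12 in wild-type cord. The highest null values fell just short of the lowest wild-type value, so the groups did not overlap, by a very small margin (difference -0.11, SE 0.07, adjusted p = 0.682). Cplx2 had 4.87, 4.68 and 4.81 in null and 4.73, 4.56 and 4.78 in wild-type cord at its brightest probe (difference 0.10, SE 0.09, adjusted p = 0.761). All 4 Cplx2 probes had higher means in null cord, by 0.10, 0.22, 0.38 and 0.53, and only the probe with 0.38 had separate groups (unadjusted p = 0.019 by limma over kept probes). Unc13a (Munc13-1), the main priming factor of excitatory terminals, had 1.23, 1.39 and 1.19 in null and 1.27, 1.04 and 1.03 in wild-type cord. Wild-type replicate 1 lay among the null samples (difference 0.16, SE 0.10, adjusted p = 0.668). All 4 Unc13 genes had higher means in null cord at their brightest probes, by 0.10 to 0.16, and none had separate groups there. A dim Unc13b probe, well above background on 2 null and 3 wild-type arrays, lay the other way. It read -6.22, -6.41 and -6.55 in null and -5.64, -6.16 and -6.18 in wild-type cord, without overlap (difference -0.40). The remaining Unc13b probe differed by 0.14.

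Synaptotagmins held 3 of the 5 members with an unadjusted p under 0.05 in the higher direction, where 5.76% of all genes lay. Of 16 measured genes, 11 had higher and 5 had lower means in null cord, with a median of 0.07, and 4 had separate groups, all higher (9.19% of all genes had separate groups in that direction and 5.63% in the other). The median over the family of each gene's deviation from its own mean was 0.07 on each null array, and it was 0.08, -0.12 and -0.11 on the wild-type arrays. Wild-type replicate 1 therefore lay above all null arrays, and the lean of the family rests on wild-type replicates 2 and 3.

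Syt5, a vesicle synaptotagmin with calcium-binding C2 domains, had the smallest p of all members. Its only probe lies in coding sequence at mm9 chr7:4494402-4494461 on the minus strand and is shown because the clearest difference of the machinery rests on this oligo alone.
Syt5 probe: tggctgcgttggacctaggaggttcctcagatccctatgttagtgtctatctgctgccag
Log2 signals were -1.10, -1.03 and -1.12 in null and -1.48, -1.83 and -1.74 in wild-type cord. The null samples lay close together, and all exceeded every wild-type sample. Syt5 averaged -1.09 ± 0.04 in null and -1.69 ± 0.19 in wild-type cord (SD, n = 3 each), a difference of 0.60 (SE 0.11, 1.52-fold). Its unadjusted limma p was 0.00166 and its adjusted p was 0.341, so it did not pass. Across 19 alternative analyses the Syt5 difference ran from 0.48 to 0.75, with an unadjusted p under 0.05 in 19 of them and adjusted p-values of 0.254 to 0.734. Against wild-type replicate 2 alone the difference was 0.75.

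Syt14, a synaptotagmin relative that does not bind calcium, was higher in null cord at both of its probes. The brighter oligo spans an exon junction within mm9 chr1:194806739-194812954 on the minus strand, so it reads spliced transcript.
Syt14 probe: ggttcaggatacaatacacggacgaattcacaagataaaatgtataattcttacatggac
This probe read -3.08, -3.33 and -3.31 in null and -3.42, -3.63 and -3.71 in wild-type cord. Wild-type replicate 1 came closest to the null samples, and the groups did not overlap (difference 0.34, SE 0.12, 1.27-fold, adjusted p = 0.513). An unadjusted p under 0.05 was kept in 11 of 19 alternative analyses, and the Syt14 difference ran from 0.17, with normexp, to 0.43. The dimmer probe read -4.11, -4.28 and -4.34 in null and -4.36, -4.74 and -4.63 in wild-type cord, also without overlap (difference 0.33). Syt16, a close relative of Syt14, had -0.31, -0.37 and -0.48 in null and -0.51, -0.96 and -0.61 in wild-type cord. Its groups did not overlap either, and wild-type replicate 2 was the lowest sample (difference 0.31, SE 0.13, adjusted p = 0.566). The other Syt16 probes differed by 0.36 and 0.53 in the same direction.

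**Figure D2:**
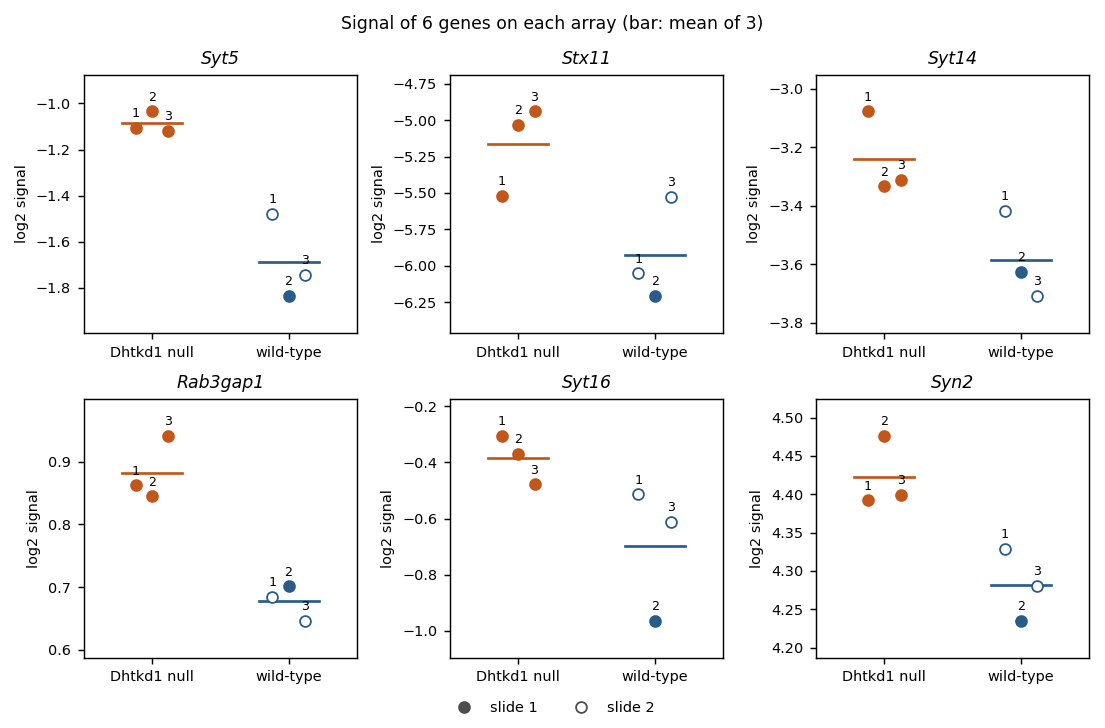
Log2 signal (y axis) of Syt5, Stx11, Syt14, Rab3gap1, Syt16 and Syn2 on each array, Dhtkd1 null left and wild-type right, with replicate numbers, group means as bars, and filled points for slide 1 and open points for slide 2. The groups do not overlap for these 6 genes. The null samples of Syt5 lie between -1.12 and -1.03, above the wild-type samples at -1.83 to -1.48.

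Syt1, the calcium sensor of fast release at many central synapses, was reported by 6 probes. One of them lies in the part that encodes the membrane-spanning segment, at mm9 chr10:108079391-108079450 on the minus strand, and it had the largest difference of the 6.
Syt1 probe: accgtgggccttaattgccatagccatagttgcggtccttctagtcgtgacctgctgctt
This probe read 2.10, 2.30 and 2.24 in null and 2.13, 1.63 and 1.62 in wild-type cord (difference 0.42, unadjusted p = 0.039 by limma over kept probes). The brightest probe read 3.88, 4.05 and 4.11 in null and 3.96, 3.39 and 3.59 in wild-type cord. At both, wild-type replicate 1 lay within the null range while wild-type replicates 2 and 3 lay below it. At the brightest probe the Syt1 difference was 0.37 (SE 0.16, 1.29-fold, adjusted p = 0.571), and it was 0.62 against wild-type replicate 2 alone. The 6 probes differed by 0.25 to 0.42, all in the same direction, but they read the same 6 RNA samples and are not replicates.

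Syt2, the fast calcium sensor of the brainstem and cord, had -1.45, -1.32 and -1.48 in null and -1.53, -1.50 and -2.45 in wild-type cord. The groups were separate only narrowly, and wild-type replicate 3 alone made most of the difference of 0.41 (SE 0.27, adjusted p = 0.68). Without that array the Syt2 difference was 0.10, and against wild-type replicate 2 alone it was 0.08. Syt13, which lacks calcium binding, had 3.44, 3.46 and 3.39 in null and 3.48, 3.04 and 3.13 in wild-type cord, with wild-type replicate 1 the highest of all 6 samples and the other wild-type samples below the null samples (difference 0.21, SE 0.13, adjusted p = 0.65).

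Syt10 had the largest spread of all members, and its probes went separate ways. Syt10 and Syt6 belong to the same subgroup of synaptotagmins, and the coding probe of Syt10 (mm9 chr15:89621288-89621347, minus strand) aligns without gaps to the Syt6 probe (mm9 chr3:103429466-103429525, plus strand) at 29 of 41 bases, which are in capitals. This was the only pair of probes of different member genes with at least 70% identity over 30 or more bases. The brighter Syt10 probe lies downstream at mm9 chr15:89612967-89613026, and 30 of its bases are shown.
Syt10 coding probe: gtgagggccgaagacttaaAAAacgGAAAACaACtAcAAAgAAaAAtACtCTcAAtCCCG
Syt6 probe: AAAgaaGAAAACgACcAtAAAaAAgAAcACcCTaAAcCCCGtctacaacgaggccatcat
Syt10 bright probe, start: aggccaccgtccacaccataaaagcctcca
At the bright probe Syt10 had log2 signals of 1.33, -2.91 and -1.28 in null and 0.77, 0.38 and 0.31 in wild-type cord. Null replicate 1 was the highest of all 6 samples and null replicates 2 and 3 were the lowest, an 18.9-fold range within 1 genotype, while the wild-type samples stayed close together. The difference was -1.44 (SE 1.03, adjusted p = 0.705), and without null replicate 1 it was -2.58. The coding probe read -2.97, -3.48 and -3.22 in null and -3.43, -3.81 and -3.58 in wild-type cord, with an opposite difference of 0.39. Both oligos were well above background on all 6 arrays, and both placed null replicate 1 highest and null replicate 2 lowest within the null group.

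Syt6 read -4.17, -3.75 and -4.06 in null and -4.15, -4.59 and -4.54 in wild-type cord. Wild-type replicate 1 lay just above null replicate 1, so the groups overlapped, although the unadjusted limma p was 0.0402 (difference 0.44, SE 0.17, adjusted p = 0.539). Syt15 was close to background, with its probe well above background on 1 null and 2 wild-type arrays, and its log2 signals of -8.03 to -4.81 carry no order.

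**Figure D3:**
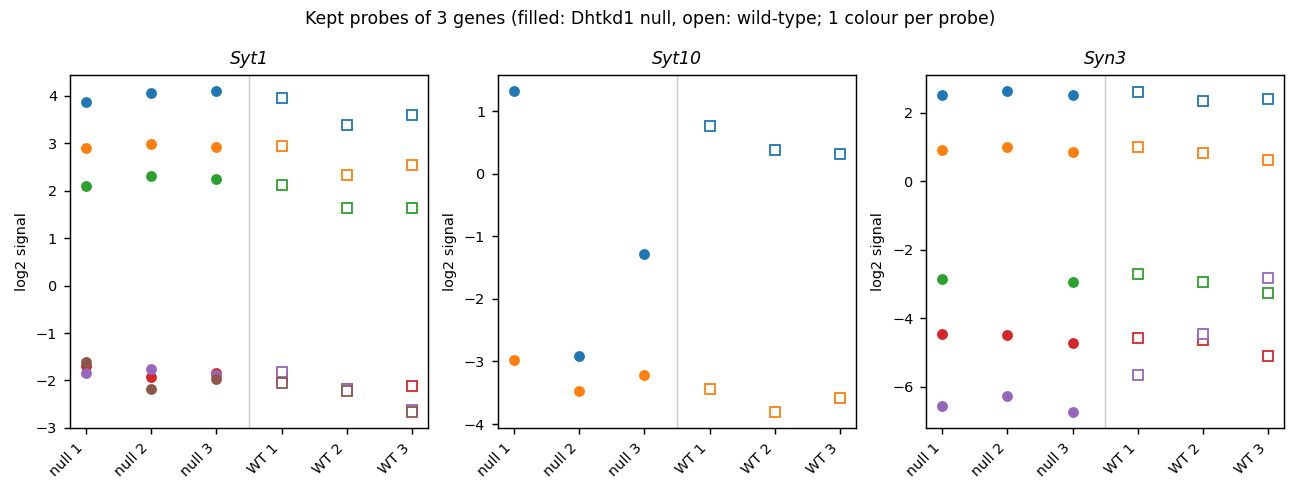
Log2 signal (y axis) of every kept probe of Syt1, Syt10 and Syn3 on each array (x axis), 1 colour per probe, filled circles for Dhtkd1 null and open squares for wild-type. The Syt1 probes are higher in null cord except for wild-type replicate 1, the bright Syt10 probe runs from -2.91 to 1.33 within the null group, and 1 dim Syn3 probe is higher in wild-type cord.

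Synapsins coat the reserve pool of vesicles. Syn2 had 4.39, 4.48 and 4.40 in null and 4.33, 4.24 and 4.28 in wild-type cord. The groups were separate with little spread within each (difference 0.14, SE 0.07, 1.10-fold, adjusted p = 0.589), and the other Syn2 probes differed by 0.24 and -0.01. Syn1 had 3.01, 2.86 and 2.77 in null and 2.71, 2.98 and 3.04 in wild-type cord, fully interleaved (difference -0.03, SE 0.12, adjusted p = 0.944). The other Syn1 probe differed by 0.08, with overlapping groups. Syn3 had 2.52, 2.65 and 2.53 in null and 2.60, 2.34 and 2.40 in wild-type cord at its brightest probe (difference 0.12, SE 0.09, adjusted p = 0.73).

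A dim Syn3 probe disagreed with the rest of that gene. It read -6.57, -6.29 and -6.74 in null and -5.65, -4.47 and -2.82 in wild-type cord, a difference of -2.22 (unadjusted p = 0.018 by limma over kept probes). Its wild-type values are far apart and its null values lie near the floor of the array, where 2 of 3 null arrays were well above background. The other 4 kept Syn3 probes differed by 0.06 to 0.23 in the opposite direction. One of those lacked a value on null replicate 2, where the spot was marked as an outlier, and was fitted on 5 arrays.

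The SV2 vesicle glycoproteins showed no separate groups. Sv2a had 3.06, 2.89 and 2.93 in null and 3.02, 2.97 and 2.91 in wild-type cord at its brighter probe. Null samples were both highest and lowest there (difference -0.01, SE 0.08, adjusted p = 0.975). The other Sv2a probe differed by 0.13, with overlapping groups. Sv2b had 1.33, 1.22 and 1.12 in null and 1.15, 1.57 and 1.23 in wild-type cord, where wild-type replicate 2 was the highest sample (difference -0.09, SE 0.13, adjusted p = 0.844), and the Sv2b difference was -0.34 against that array alone. Sv2c had -3.62, -3.65 and -3.79 in null and -3.57, -3.93 and -4.00 in wild-type cord, with wild-type replicate 1 highest (difference 0.14, SE 0.13, adjusted p = 0.761).

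**Figure D4:**
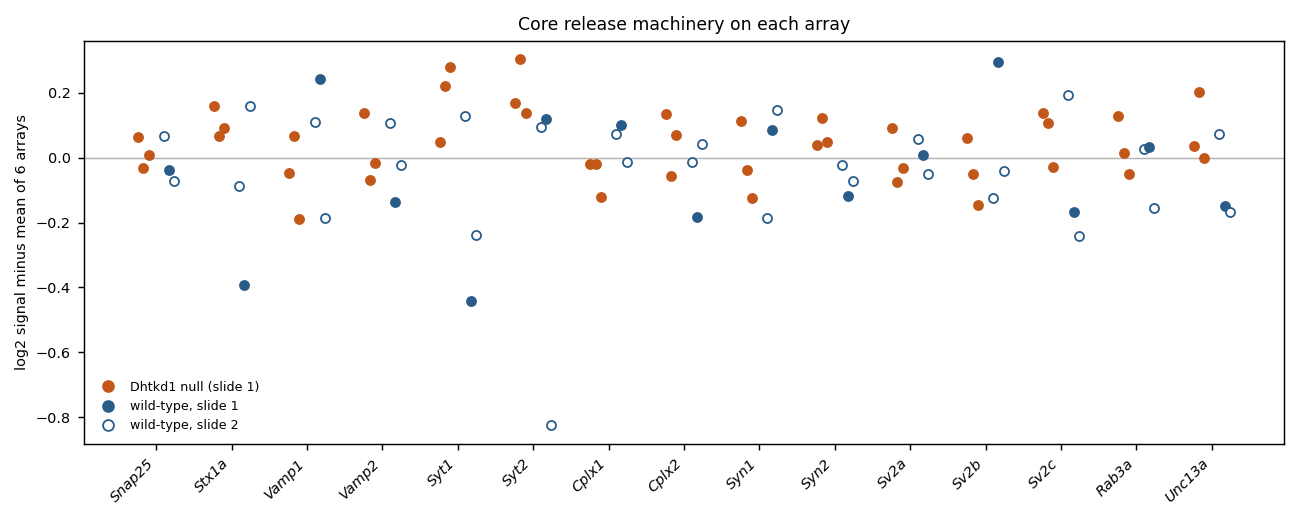
Log2 signal minus the gene's mean over 6 arrays (y axis) for genes of the core release machinery (x axis), Dhtkd1 null left and wild-type right of each position, filled for slide 1 and open for slide 2. Most points lie within 0.2 of 0, and the lowest points belong to single wild-type arrays of Syt2, Syt1 and Stx1a.

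Rab3 GTPases bring vesicles to the release site. Rab3a, the main form in neurons, had 6.66, 6.54 and 6.48 in null and 6.55, 6.56 and 6.37 in wild-type cord. These overlapped (difference 0.06, SE 0.09, adjusted p = 0.839). All 4 Rab3 GTPases had higher means in null cord, by 0.06 to 0.23, yet the median of 0.13 became -0.01 with slide as a block, when 1 was higher and 3 were lower. Rab3c was read by 2 oligos that lie across the same intron in mm9 (chr13:110874433-110971216 and chr13:110874453-110971236, minus strand) and share 40 bases, in capitals.
Rab3c probe 1: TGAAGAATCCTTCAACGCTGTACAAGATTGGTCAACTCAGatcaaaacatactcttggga
Rab3c probe 2: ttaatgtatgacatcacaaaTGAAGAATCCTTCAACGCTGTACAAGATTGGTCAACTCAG
Probe 1 read -0.82, -0.91 and -0.89 in null and -1.08, -0.86 and -1.36 in wild-type cord, and probe 2 read -1.23, -1.34 and -1.26 in null and -1.51, -1.43 and -1.93 in wild-type cord. Wild-type replicate 3 was lowest at both. The groups were separate at probe 2 (difference 0.35) and not at probe 1 (difference 0.23, SE 0.14, adjusted p = 0.658), although most of their bases are the same.

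Rab3gap1, the catalytic subunit of the complex that switches Rab3 off, had small and even differences. Its brightest probe read 0.86, 0.84 and 0.94 in null and 0.68, 0.70 and 0.65 in wild-type cord. Every null sample exceeded every wild-type sample, with within-group SDs of 0.05 and 0.03. The difference was 0.21 (SE 0.06, 1.15-fold, adjusted p = 0.502) and 0.18 with slide as a block, and its unadjusted p stayed under 0.05 in 14 of 19 alternative analyses. A dimmer Rab3gap1 probe differed by 0.33 with overlapping groups. Rab3gap2, the partner subunit, had 0.74, 1.35 and 0.95 in null and 0.62, 1.15 and 0.62 in wild-type cord (difference 0.22, SE 0.22, adjusted p = 0.78). Its other kept probes differed by 0.01 and -0.02.

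The 12 GTPases Rab30 to Rab39 entered through their names and serve mostly the Golgi, endosomes and lysosome-related organelles. Of these, 3 had higher and 9 had lower means in null cord. Rab30, a Golgi GTPase, was the only one with separate groups, a share of 8.33%, against 14.8% of all genes in either direction. It had -0.73, -0.75 and -0.99 in null and -0.71, -0.40 and -0.53 in wild-type cord (difference -0.27, SE 0.12, adjusted p = 0.565). Without these 12 genes, 41 members (60.3%, against 54.5% of all genes) had higher and 27 lower means, with a median of 0.07. With slide as a block the median of these members was -0.00057, with 33 higher and 35 lower.

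Most members were steady across the arrays. Their median within-group SD was 0.15, close to that of all genes, 0.15. An SD over 0.5 was found for 2 members (2.5%), Syt10 and Syt15, and for 8.45% of all genes tested. A range over 1 log2 unit across the 6 arrays was found for 5 members (6.25%) and for 15.0% of all genes. These shares are descriptions without a test.

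Other genes of the presynaptic terminal and vesicle cycle leaned the same way as the synaptotagmins. Of 64 genes in that list, 46 (71.9%, against 54.5% of all genes) had higher and 18 had lower means in null cord. The list's median was 0.06 (all genes 0.02), and 0 of its genes passed the adjusted threshold. At an unadjusted p under 0.05, 6 were higher (5.76% of all genes) and 2 lower (3.25% of all genes), and the share of the lower ones is that of the background. The 6 became 3 when wild-type replicate 2 or null replicate 2 was left out and 2 when null replicate 1 was. The 2 became 1 on leaving out wild-type replicate 3, and 0 on leaving out any of wild-type replicate 2 and null replicates 2 and 3. Shares of all genes with an array left out were not counted here either. Rab27a, a GTPase of secretory granules, had -3.09, -3.00 and -2.98 in null and -3.27, -3.40 and -3.27 in wild-type cord (difference 0.29, adjusted p = 0.432). Sytl2, a synaptotagmin-like protein that binds Rab27, lay the other way, with 1.15, 0.66 and 0.79 in null and 1.21, 1.56 and 1.38 in wild-type cord (difference -0.52, adjusted p = 0.495). Synpr (synaptoporin), a vesicle membrane protein, had 1.32, 1.05 and 1.31 in null and 1.01, 0.78 and 0.81 in wild-type cord (difference 0.36, adjusted p = 0.501). Rims3, of the active zone family of RIM proteins, had 2.94, 2.93 and 2.89 in null and 2.74, 2.39 and 2.62 in wild-type cord (difference 0.34, adjusted p = 0.501). The groups did not overlap for these 4 genes.

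Neuronal marker lists did not move together. The general neuron list had higher means in null cord for 5 of 15 genes, with a median of -0.03, and its array medians were 0.06, 0.01 and -0.07 in null and -0.02, 0.03 and -0.04 in wild-type cord. Markers of excitatory cord neurons were higher for 4 of 4 genes, and for 3 of 4 with slide as a block. The array medians of this list were 0.14, 0.15 and 0.22 in null and -0.06, -0.30 and -0.32 in wild-type cord. Among its genes, Tlx3 and Lmx1b were dim (wild-type means -6.16 and -5.42), though well above background on all 6 arrays. Inhibitory neuron markers were higher for 4 of 5 genes. Their array medians were 0.07, 0.04 and -0.003 in null and 0.21, -0.08 and -0.18 in wild-type cord. Wild-type replicate 1 was thus the highest wild-type array for both lists, as it was for Syt1, Syt13 and the synaptotagmin median. The part of these markers in those results was not tested. Motor neuron markers were lower for 6 of 6 genes, with array medians of 0.11, -0.30 and -0.07 in null and -0.45, 0.69 and 0.05 in wild-type cord, so wild-type replicate 2 stood highest there. That array also had the highest oligodendrocyte median, at 0.37, against -0.15 to 0.07 in null cord. Schwann cell markers had an array mean of 2.07 in wild-type replicate 1, against -1.47 to 0.24 in null cord. The part of these differences in tissue content in the member results was not tested.

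**Figure D5:**
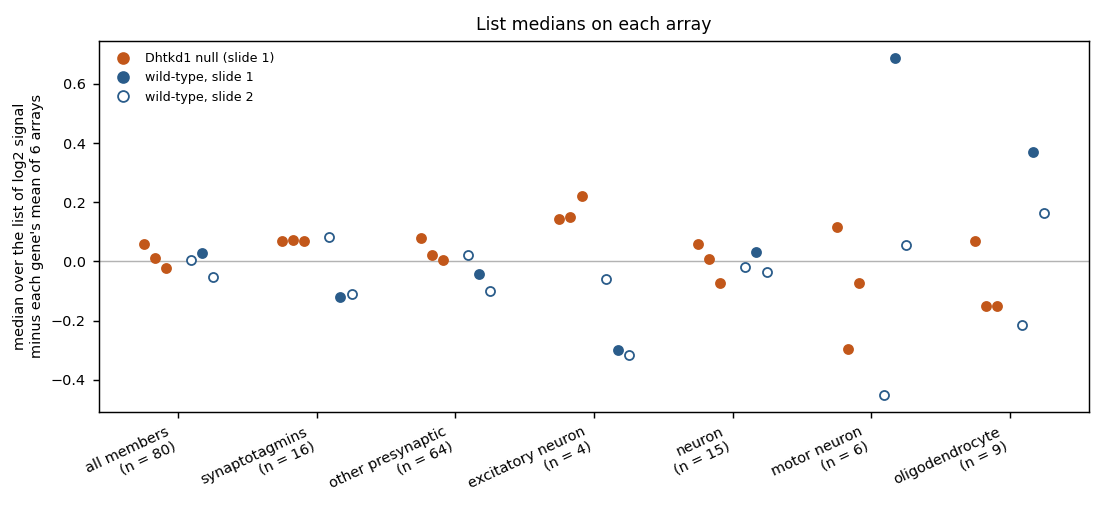
Median over each list of log2 signal minus the gene's mean over 6 arrays (y axis) for 7 lists (x axis), Dhtkd1 null left and wild-type right, filled for slide 1 and open for slide 2. The member median stays within 0.06 of 0 on every array. The synaptotagmin, other presynaptic and excitatory neuron lists put wild-type replicates 2 and 3 below the null arrays.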

How the data were processed

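The deposited scanner files hold spot intensity, which per the file headers was background-subtracted and detrended by Agilent Feature Extraction 10.7.3.1 (design 014868, mm9) and not normalized between arrays. The authors also deposited a table of log2 values whose method is not stated; it served as an alternative. From the intensity, outlier spots were left out, log2 values were averaged per probe and the array's 75th percentile was subtracted. Of 41174 probes, 33190 were well above background on at least 3 arrays and were kept. Symbols came from the RefSeq table of GRCm38.p6 (27668 probes by accession, 5589 by current symbol, 471 by synonym), and 7446 probes kept the file name. Each gene took its brightest kept probe. Null minus wild-type was fitted in R 4.3.3 with limma 3.58.1 (lmFit and eBayes, 2-sided, without covariates) and Benjamini-Hochberg adjustment over 21437 genes, or over all kept probes for single oligos. An exact permutation test of 3 against 3 cannot go below p = 0.1, and the number of arrays limits the precision. On simulated arrays with the spread of the real genes, the fit called 65 of 100 genes changed by 1 log2 unit and 82 of 100 changed by 2. It also called 14 unchanged genes. Each simulated gene was drawn independently and without a slide effect, and both sets of changed genes were present at once. These shares therefore need not hold for the real arrays, where 0 genes passed.

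Named genes were 17 core genes of release, then members with an unadjusted p under 0.05 and separate groups, members whose kept probes disagree in sign with 1 at p under 0.05, and members undetected on every array of 1 genotype; other lists gave up to 4 genes of smallest p. Some genes that this rule names are not reported here. The members and lists were chosen with earlier results of these data known. Alternatives were other normalizations and background correction, the authors' table, other filters on dim probes, outlier spots kept, all probes averaged, slide or replicate number as a block, slide 1 alone, trended and robust variance, and each array left out. Probe sequences are those in the scanner files.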

Additional observations from a re-analysis of the deposited data

How the results depend on the processing

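No member passed the adjusted threshold in limma in any of the 19 alternatives, and at an unadjusted p under 0.05 all 6 arrays gave 5 higher and 0 lower. Over all genes the adjusted count of 0 became 1 with quantile normalization, median centring, normexp, the authors' table or a filter on all arrays, 3 with trend and robust options, and 0 to 2 when 1 array was left out. Members higher at an unadjusted p under 0.05 numbered 3 with quantile normalization, the authors' table or the replicate block, 8 with all probes averaged, 9 on slide 1 alone and 2 to 11 with 1 array left out. Members lower numbered 1 with quantile normalization, the authors' table, all probes averaged or the replicate block, 2 with trend and robust options, 3 on slide 1 alone, 5 with slide as a fixed block and 0 to 5 with 1 array left out. The member median of 0.04 became -0.011 with median centring and -0.014 with slide as a block or slide 1 alone, and ran from -0.012 to 0.050 with 1 array left out. Other presynaptic genes lower at that p numbered 1 without a filter, with all probes averaged or with slide as a fixed block, 0 with the replicate block, and 0 to 3 with 1 array left out; those higher ran from 2 to 8. Except with slide as a fixed block, shares of all genes at an unadjusted p under 0.05 were not counted for the alternatives. The counts in these settings therefore have no background beside them and are not read as shifts of the members. Replicate numbers were not taken as pairs, since same-numbered arrays deviated together with r of -0.02, -0.11 and 0.33 across genes.

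The sign turned for core genes whose difference is near 0, and for Syn3, whose difference was 0.12. Median centring gave -0.022 for Snap25 and -0.014 for Vamp2. With all probes averaged, Snap25 was at -0.0085, Syn1 at 0.022, Sv2a at 0.059 and Syn3 at -0.26. The Syn3 average takes in the dim probe of that gene, whose own difference was -2.22. Slide as a block, or slide 1 alone, gave -0.00036 for Rab3a. With 1 array left out, Snap25 ran from -0.0011 to 0.067, Vamp2 from -0.025 to 0.097, Syn1 from -0.13 to 0.033, Sv2a from -0.058 to 0.026 and Sv2b from -0.17 to 0.037. The causes were not tested. The other 362 of 380 recomputed differences of named genes kept their sign and side of the threshold. Signal near background limits Syt15, the dim Syn3 probe and Stx11.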
